A study of Mus musculus with 29 samples.

Results

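The E2F transcription factors and their DP dimerization partners were described over all transfected groups of a microRNA overexpression experiment in mouse C2C12 cells, an established line of muscle precursors. The 10 members were E2f1, E2f2, E2f3, E2f4, E2f5, E2f6, E2f7, E2f8, Tfdp1 and Tfdp2, out of 19938 genes measured. They were chosen by gene symbol, and each was represented by the probe set that carried its symbol alone and had the highest mean over the 27 transfected arrays. Cells at passage 27 received 50 nM of a synthetic mimic of 1 of 7 microRNAs, which were miR-1, miR-145, miR-22, miR-29a, miR-34a, miR-365 and Let-7b, and RNA was taken after 36 h. Each microRNA had 3 arrays from 3 experiments. The control was the AllStar negative control oligonucleotide, delivered in the same way, with 3 transfections that were each hybridized once more as a technical repeat. A terminally differentiated myotube sample and a proliferating myoblast sample, both untransfected, had 1 array each. All groups share 1 cell line, and a mimic can raise a microRNA far above the level a cell makes itself.

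E2F proteins bind DNA as dimers with a DP protein, and they sit at the centre of the switch from the G1 to the S phase of the cell cycle. E2F1, E2F2 and E2F3 are mostly activators of replication genes, and E2F4 and E2F5 are mostly repressors that act bound to the pocket proteins p107 and p130. E2F6 represses without pocket proteins, in Polycomb-related complexes, and the atypical E2F7 and E2F8 repress without a DP partner. In muscle precursors the E2F programme is turned off through the retinoblastoma protein and its relatives when cells leave the cycle and fuse to myotubes.

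The mature strands of 5 of the 7 microRNAs are shown because the seed, bases 2 to 8 in capitals, is the part that chiefly decides which transcripts a microRNA pairs with. They are the mouse sequences of RefSeq with positions on GRCm38.p6.
let-7b-5p (chr15:85707325-85707346, plus strand): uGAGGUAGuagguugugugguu
miR-22-3p (chr11:75463772-75463793, plus strand): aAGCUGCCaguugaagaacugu
miR-29a-3p (chr6:31062673-31062694, minus strand): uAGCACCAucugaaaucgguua
miR-34a-5p (chr4:150068473-150068494, plus strand): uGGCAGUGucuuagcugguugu
miR-365-3p (chr11:79726467-79726488 and chr16:13453895-13453916, both plus strand): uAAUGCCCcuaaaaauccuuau
No seed occurred more than once among these 5 strands. miR-1 and miR-145 are named only.

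Levels are given as deposited, as log2 array intensities, so that a difference of 1 is a doubling. The 29 arrays had medians of 7.24 to 7.39. Every member read above 6.67, which was the median for probe sets that name no gene. The number of arrays limits the precision of every comparison. A difference passed, and is called higher or lower, where limma's p-value adjusted by Benjamini-Hochberg over all 19938 genes was below 0.05. Each group had 3 values, a control value being the mean of an array and its repeat. Single arrays stood apart in the following ways. The mean of 7 interferon genes was 11.41 in miR-145 replicate 3, against 7.86 and 7.57 in the other miR-145 replicates and 6.23 to 6.40 in control cells. In the untransfected array labelled myoblast, 8 of 10 muscle markers lay above all 27 transfected arrays, among them Myog, the myogenic factor myogenin, at 11.56 against a control mean of 9.76. The 10 markers were Myod1, Myf5 and Des, listed for myoblasts, and Myog, Acta1, Myh3, Myh1, Ckm, Tnnt3 and Mymk, listed for myotubes.

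Most changes in the family were decreases. Over the 70 pairs of a member and a microRNA, 31 passed, of which 27 were lower and 4 higher than control. All 10 members passed limma's F test over the 7 microRNAs together, as did 49.4% of all genes, with adjusted p between 9.46e-12 for E2f5 and 0.00507 for E2f8. With miR-1, 8 members fell and 0 rose, where 10.5% of all genes fell and 13.2% rose. Without miR-1 replicate 3 the members that fell were 5. With miR-1, 7 of 10 muscle markers rose and 1 fell. With miR-365, 6 members fell and 1 rose, where 8.33% of all genes fell and 11.7% rose. With Let-7b 4 members fell and 1 rose, where 5.46% of all genes did so in each direction. With miR-34a 4 members fell and 0 rose, where 6.06% of all genes fell and 5.62% rose. With miR-145 2 members fell and 1 rose, where 3.00% of all genes fell and 3.85% rose. With miR-22 2 members fell and 0 rose, where 5.67% of all genes fell and 8.82% rose, and a further quantile normalization, array weights or a fit of only these arrays gave 4 or 5 members in place of 2. With miR-29a 1 member fell and 1 rose, where 4.78% of all genes fell and 5.54% rose. The median difference from control over the 10 members was −0.48 for miR-1 and −0.46 for miR-365 on the log2 scale. It lay between −0.23 and −0.04 for the other 5 microRNAs, and the median over all genes lay between −0.01 and 0.04 for all 7. In a bulk array, fewer cells of a type and less RNA per cell cannot be told apart.

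The microRNAs that changed a member varied within the family. E2f1 and E2f8 both fell with miR-1 and miR-365, while E2f2 and E2f5 fell with 4 microRNAs each, E2f3 with 3 and E2f4 with 2. By role, 9 of the 21 pairs of an activator were lower and 0 higher, while over all genes 6.26% of such pairs were lower and 7.74% higher. E2f4 and E2f5 together had 6 lower and 1 higher of 14 pairs. E2f6 had 2 lower and 1 higher of 7, E2f7 and E2f8 had 5 lower of 14, and the DP genes had 5 lower and 2 higher of 14. The number of members whose 3 values lay apart from the 3 control values was 9 for miR-1 and 8 for miR-365, where 34.3% of all genes did so for each. It was 6 for Let-7b (27.6% of all genes), 6 for miR-34a (28.5%), 5 for miR-22 (30.8%), 5 for miR-145 (23.6%) and 3 for miR-29a (26.0%).

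**Figure D1:**
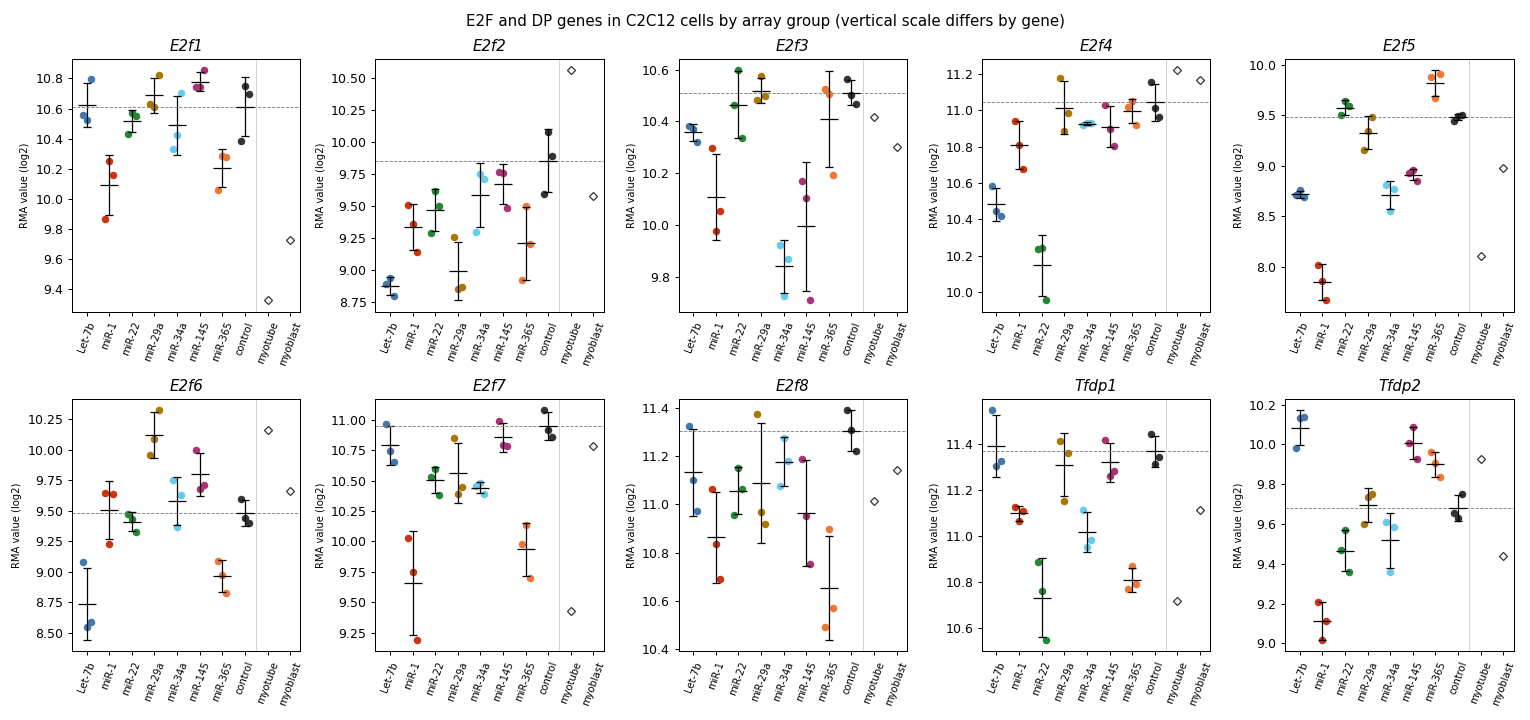
Array values of the 10 members (RMA value on the log2 scale, vertical axis, with a scale of its own for each gene) in the 7 microRNA groups, the control, the myotube and the myoblast sample (horizontal axis). Filled points are the 3 values of a transfected group, with a bar for the mean and whiskers for 1 SD, the dashed line is the control mean, and open diamonds are single arrays; E2f5 is lowest with miR-1, and E2f1 is lower in both untransfected arrays than in every transfected value.

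E2f1, the activator best known for driving both S-phase entry and apoptosis, changed least often among the activators. It read 9.87, 10.25 and 10.16 with miR-1, against 10.39, 10.75 and 10.70 in control cells. All 3 miR-1 values lay below the lowest control value, and the difference was −0.52 ± 0.11 on the log2 scale (SE, adjusted p = 0.00129), a 1.43-fold decrease. With miR-365 E2f1 read 10.06, 10.28 and 10.28, again below all control values, and the difference was −0.41 ± 0.11 (adjusted p = 0.0117). That call was lost without miR-365 replicate 1 (adjusted p = 0.0764), without control replicate 2 (0.0765) or without control replicate 3 (0.0604). With the other 5 microRNAs the E2f1 means lay between 10.49 for miR-34a and 10.78 for miR-145, against 10.61 in control cells, and none passed.

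E2f2, an activator that in mouse T cells also restrains proliferation, had the most calls among the activators. It read 8.89, 8.94 and 8.80 with Let-7b, against 9.59, 10.08 and 9.89 in control cells. The Let-7b values were all lower than the control values, with a difference of −0.98 ± 0.15 (adjusted p = 0.000133), a 1.97-fold decrease. With miR-29a it read 9.26, 8.85 and 8.87, a 1.82-fold decrease with a difference of −0.86 ± 0.15 (adjusted p = 0.000527). With miR-365 it read 8.92, 9.50 and 9.21, with a difference of −0.65 ± 0.15 (adjusted p = 0.00351). Neither microRNA's values reached those of the control. With miR-1 E2f2 read 9.51, 9.36 and 9.14 and the difference was −0.52 ± 0.15 (adjusted p = 0.0148). The miR-1 call did not hold without miR-1 replicate 3 (adjusted p = 0.098), without control replicate 2 (0.101) or without control replicate 3 (0.0501). The Let-7b and miR-29a groups overlapped with each other at the low end of the order of levels.

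E2f3, the activator whose loss most impairs proliferation of mouse fibroblasts, fell with a different set. It read 9.92, 9.73 and 9.87 with miR-34a, against 10.56, 10.50 and 10.47 in control cells. No miR-34a value came near the control values, and the difference was −0.67 ± 0.11 (adjusted p = 0.000163), a 1.59-fold decrease. With miR-145 E2f3 read 10.17, 10.11 and 9.71, with a difference of −0.52 ± 0.11 (adjusted p = 0.00408). Without miR-145 replicate 3, the array with high interferon genes, the difference was −0.37 and still passed (adjusted p = 0.0412). With miR-1 it read 10.30, 9.98 and 10.05, and the difference was −0.40 ± 0.11 (adjusted p = 0.00751). E2f3 has a further probe set of its own, which gave −0.87 for miR-34a, −0.55 for miR-145 and −0.40 for miR-1, and all 3 of these passed (adjusted p = 9.27e-05, 0.0135 and 0.0338).

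E2f4, the most abundant pocket-bound E2F of resting cells, fell with miR-22 and Let-7b. It read 10.24, 10.25 and 9.96 with miR-22, against 11.16, 11.01 and 10.96 in control cells. The miR-22 values were all lower than every other transfected value of E2f4, and the difference from control was −0.90 ± 0.09 (adjusted p = 3.32e-07), a 1.86-fold decrease. With Let-7b E2f4 read 10.59, 10.44 and 10.42, which is below the control values, with a difference of −0.56 ± 0.09 (adjusted p = 0.000169). Its means with the other 5 microRNAs lay between 10.81 for miR-1 and 11.01 for miR-29a, against 11.04 in control cells, and none passed. The miR-1 difference of −0.23 (adjusted p = 0.0629) lay close to the threshold and passed in 5 of its alternatives.

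E2f5, the other pocket-bound repressor, moved most. It read 8.02, 7.87 and 7.67 with miR-1, against 9.45, 9.49 and 9.50 in control cells. Every miR-1 value was lower than all other transfected values, and the difference was −1.63 ± 0.09 (adjusted p = 4.86e-10), a 3.09-fold decrease. Smaller decreases occurred with miR-34a, where E2f5 read 8.81, 8.56 and 8.77 (−0.77 ± 0.09, adjusted p = 5.15e-06), and with Let-7b, where it read 8.71, 8.76 and 8.69 (−0.76 ± 0.09, adjusted p = 7.01e-06). With miR-145 it read 8.93, 8.96 and 8.85, a difference of −0.57 ± 0.09 (adjusted p = 0.000446), and −0.54 without miR-145 replicate 3 (adjusted p = 0.00397). All 4 groups lay below the control values without overlap. miR-365 went the other way: E2f5 read 9.88, 9.68 and 9.91, above every control value, with a difference of 0.34 ± 0.09 (adjusted p = 0.0116). That increase no longer passed without miR-365 replicate 1 (adjusted p = 0.0527) or replicate 3 (0.0685).

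E2f6, the Polycomb-linked repressor, differed in direction between microRNAs. It read 9.96, 10.08 and 10.32 with miR-29a, against 9.60, 9.44 and 9.40 in control cells. All 3 miR-29a values were higher than the control values, and the difference was 0.64 ± 0.14 (adjusted p = 0.00342), a 1.56-fold increase. With Let-7b E2f6 read 9.08, 8.54 and 8.59, below all control values, with a difference of −0.74 ± 0.14 (adjusted p = 0.000782). With miR-365 it read 9.09, 8.97 and 8.83, also below them, with a difference of −0.52 ± 0.14 (adjusted p = 0.00923), and this call was lost without miR-365 replicate 3 (adjusted p = 0.0595).

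E2f7, an atypical repressor that is itself induced in S phase, fell with miR-1, miR-365 and miR-34a. It read 10.03, 9.75 and 9.19 with miR-1, against 11.08, 10.92 and 10.86 in control cells. The miR-1 values spread over a wider range than the control values but stayed below them, and the difference was −1.30 ± 0.15 (adjusted p = 1.19e-06), a 2.45-fold decrease. With miR-365 E2f7 read 9.98, 10.13 and 9.70, a difference of −1.01 ± 0.15 (adjusted p = 4.02e-05). With miR-34a it read 10.46, 10.48 and 10.39, again apart from the control, and the difference was −0.51 ± 0.15 (adjusted p = 0.0317). The miR-34a call was lost whichever of its 3 arrays or the 3 control values was left out, with adjusted p between 0.0554 and 0.13. With miR-22 the difference was −0.45 ± 0.15 and with miR-29a −0.39 ± 0.15, and neither passed (adjusted p = 0.0544 and 0.129). Both passed when replicate numbers entered as a block (adjusted p = 0.00468 for miR-22 and 0.0167 for miR-29a).

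E2f8, the atypical partner of E2F7, had smaller differences. It read 10.49, 10.90 and 10.57 with miR-365, against 11.39, 11.31 and 11.22 in control cells. These values were all lower than the control values, with a difference of −0.65 ± 0.13 (adjusted p = 0.000765). With miR-1 E2f8 read 11.06, 10.84 and 10.69, also lower without overlap, with a difference of −0.44 ± 0.13 (adjusted p = 0.0142). The miR-1 call did not pass without miR-1 replicate 3 (adjusted p = 0.0989) or without control replicate 1 (0.059).

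Tfdp1, which encodes the main dimerization partner DP1, only fell. It read 10.89, 10.76 and 10.55 with miR-22, against 11.45, 11.32 and 11.34 in control cells. The miR-22 values lay below the control values, and the difference was −0.63 ± 0.08 (adjusted p = 1.47e-05), a 1.55-fold decrease. With miR-365 the difference was −0.56 ± 0.08 (adjusted p = 3.93e-05), and the values of 10.77, 10.87 and 10.80 were likewise apart from the control. With miR-34a Tfdp1 read 11.12, 10.96 and 10.99 (−0.35 ± 0.08, adjusted p = 0.00705). With miR-1 it read 11.13, 11.07 and 11.11 (−0.27 ± 0.08, adjusted p = 0.0222). Both sets lay below the control values. The miR-1 call was lost without miR-1 replicate 2 (adjusted p = 0.065), without miR-1 replicate 3 (0.0555) or without control replicate 1 (0.0975). The further probe set of Tfdp1 passed for the same 4 microRNAs, with differences of −0.62 for miR-22, −0.46 for miR-365, −0.38 for miR-34a and −0.26 for miR-1.

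Tfdp2, which encodes the less studied partner DP2, rose with Let-7b and miR-145 and fell with miR-1. It read 9.98, 10.13 and 10.14 with Let-7b, against 9.66, 9.63 and 9.75 in control cells. All Let-7b values were higher, and the difference was 0.40 ± 0.08 (adjusted p = 0.00156). With miR-145 Tfdp2 read 10.01, 10.09 and 9.93, with a difference of 0.33 ± 0.08 (adjusted p = 0.0152). Without miR-145 replicate 3 the miR-145 difference was 0.37 (adjusted p = 0.0217), whereas it did not pass without miR-145 replicate 2 (adjusted p = 0.0632), without control replicate 1 (0.0527), without control replicate 2 (0.0725) or when the miR-145 and control arrays alone were fitted (0.0634). With miR-1 Tfdp2 read 9.21, 9.02 and 9.11, below all control values, with a difference of −0.57 ± 0.08 (adjusted p = 1.37e-05). With miR-365 the difference of 0.22 did not pass (adjusted p = 0.0606), but passed with replicate numbers as a block (adjusted p = 0.046).

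**Figure D2:**
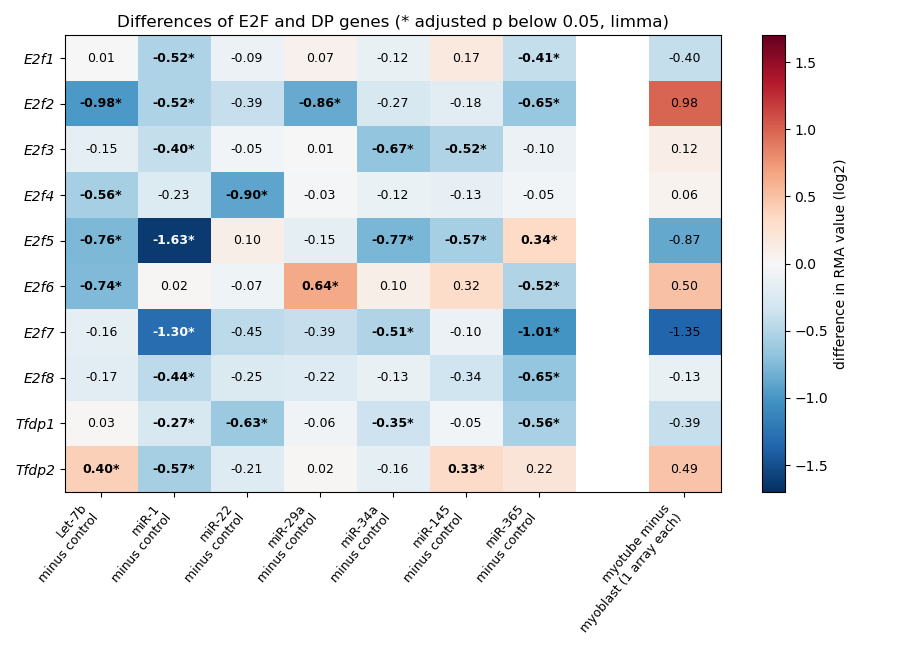
Grid of log2 differences, with the 10 members down the page and the 7 microRNAs minus control across it, then myotube minus myoblast with 1 array each in the last column. Red is higher, blue is lower, and an asterisk marks adjusted p below 0.05 by limma; the darkest blue is E2f5 with miR-1 at −1.63, and the 4 red cells with an asterisk are E2f6 with miR-29a, E2f5 with miR-365 and Tfdp2 with Let-7b and miR-145.

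To see which changes set a microRNA apart from the others, each group was tested against the mean of the other 6 microRNAs in the same fit. E2f5 was 1.33 lower with miR-1 than with the others (log2 difference −1.33 ± 0.07, adjusted p = 3.27e-11) and higher with miR-365 (0.97 ± 0.07, adjusted p = 8.1e-10). E2f4 was lower with miR-22 (−0.71 ± 0.07, adjusted p = 1.18e-07), and Tfdp2 was lower with miR-1 (−0.66 ± 0.06, adjusted p = 3.27e-08). In these 4 cases the 3 values lay outside all values of the other 6 microRNAs. Tested this way, miR-1 had 4 members lower and 0 higher, where 13.7% of all genes were lower and 15.0% higher. miR-365 had 5 members lower and 3 higher (11.3% and 15.8% of all genes). Let-7b had 4 members lower and 3 higher (10.3% and 8.19% of all genes), and miR-34a had 3 lower and 0 higher (8.18% and 5.90% of all genes). miR-34a had 5 members changed when replicate numbers entered as a block, and 1 without miR-34a replicate 2. miR-145 had 1 member lower and 6 higher (8.59% and 10.3% of all genes), and 4 changed in all without miR-145 replicate 1. miR-29a had 1 member lower and 5 higher (8.26% and 8.80% of all genes), and miR-22 had 3 lower and 2 higher (6.33% and 9.45% of all genes).

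The genes whose levels ran most like those of a member over the 24 transfected values are given as a description, since these values share libraries and groups. E2f7 ran with Rad54l, a recombination factor (Pearson's r = 0.98), with Hrob (0.97) and with Ncaph, a condensin subunit (0.96). E2f5 ran with Tubgcp4, a component of the gamma-tubulin ring (0.95), with Csnk1g1, a casein kinase (0.93), and with Zfp729b (0.91). Likeness was lower for E2f2, which ran with Tmem223 (0.78), Rhog (0.77) and Banf1 (0.76), and for E2f8, which ran with Cnot9 (0.85), Nfib (0.82) and Hrob (0.79). E2f1 ran with H2ac1 (0.87), Pttg1 (0.86), which encodes securin, and Prtg (0.85), and E2f3 with Nkap (0.89), Fancm (0.86) and Thap2 (0.83). E2f4 ran with Mob3a (0.91), Minpp1 (0.89) and Poldip2 (0.88), and E2f6 with Synpo2 (0.89), Fam89b (0.88) and Prdm4 (0.87). Tfdp1 ran with Mcph1, Tnfrsf21 and C2cd5 (0.90 each), and Tfdp2 with Abitram (0.90), Dhdds (0.88) and Ppih (0.86). Between members the highest values were 0.73 for E2f7 with E2f8, 0.68 for E2f1 with E2f7 and 0.59 for E2f3 with E2f5.

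E2F genes are themselves known targets of E2F proteins, so the RefSeq promoter windows of the members, 250 bases before to 50 after a start on GRCm38.p6, were searched for the E2F motif. The letters searched were TTTCCCGC, TTTCGCGC, TTTGCCGC and TTTGGCGC on both strands. Windows were given for 8 of the 10 members. A match stood in 4 of these 8 genes, which were E2f2, E2f3, E2f7 and Tfdp1, and in 2.61% of the 27025 genes with a window. By windows it stood in 5 of 12, or 41.7%, against 2.27% of all 32851 windows, but the windows of Tfdp1 with a match overlap and hold the same site, so the 5 windows are 4 sites. The stretch around each match is shown, read along the gene's strand, with the match in capitals.
E2f2 (chr4:136172283-136172323, plus strand): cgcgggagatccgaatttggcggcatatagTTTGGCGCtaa
E2f3 (chr13:29986037-29986104, minus strand): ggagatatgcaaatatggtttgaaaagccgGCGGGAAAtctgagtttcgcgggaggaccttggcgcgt
E2f7 (chr10:110745211-110745278, plus strand): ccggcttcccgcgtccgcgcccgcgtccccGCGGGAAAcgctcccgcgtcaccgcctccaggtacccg
Tfdp1 (chr8:13338678-13338745, plus strand): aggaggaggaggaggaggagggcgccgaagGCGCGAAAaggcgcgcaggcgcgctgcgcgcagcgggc
A match is a description of the letters only. Only the windows at the given starts were searched. A motif at another start of a gene, E2f1 included, or outside its window would not be seen.

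The untransfected arrays were set side by side without a test, since each is 1 sample. The array labelled myoblast carried muscle markers at a high level, as given above, and of the 10 markers 8 were higher still in the myotube array. Their mean level was 12.59 in the myotube array and 11.98 in the array labelled myoblast, against 10.65 to 10.87 in control arrays, and their part in the differences below was not tested. Of the members, 3 differed by at least 1.5-fold. E2f7 read 9.43 in the myotube array and 10.78 in the array labelled myoblast, a 2.55-fold lower level, and E2f5 read 8.11 in the myotube array and 8.98 in the array labelled myoblast, a 1.83-fold lower level. E2f2 read 10.56 in the myotube array and 9.58 in the array labelled myoblast, which is 1.98-fold higher, and its myotube value exceeded all 27 transfected values. Over all genes 7.42% were at least 1.5-fold higher and 6.11% at least 1.5-fold lower in the myotube array. E2f1 read 9.33 in the myotube array and 9.73 in the array labelled myoblast, and both lay below the lowest transfected value of 9.87. E2f6 read 10.16 in the myotube array and 9.66 in the array labelled myoblast. Tfdp2 read 9.93 in the myotube array and 9.44 in the array labelled myoblast, while Tfdp1 read 10.72 in the myotube array and 11.11 in the array labelled myoblast. E2f3, E2f4 and E2f8 differed by less than 0.14 on the log2 scale, and for E2f3 the sign differed between its probe sets (0.12 and −0.09).

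**Figure D3:**
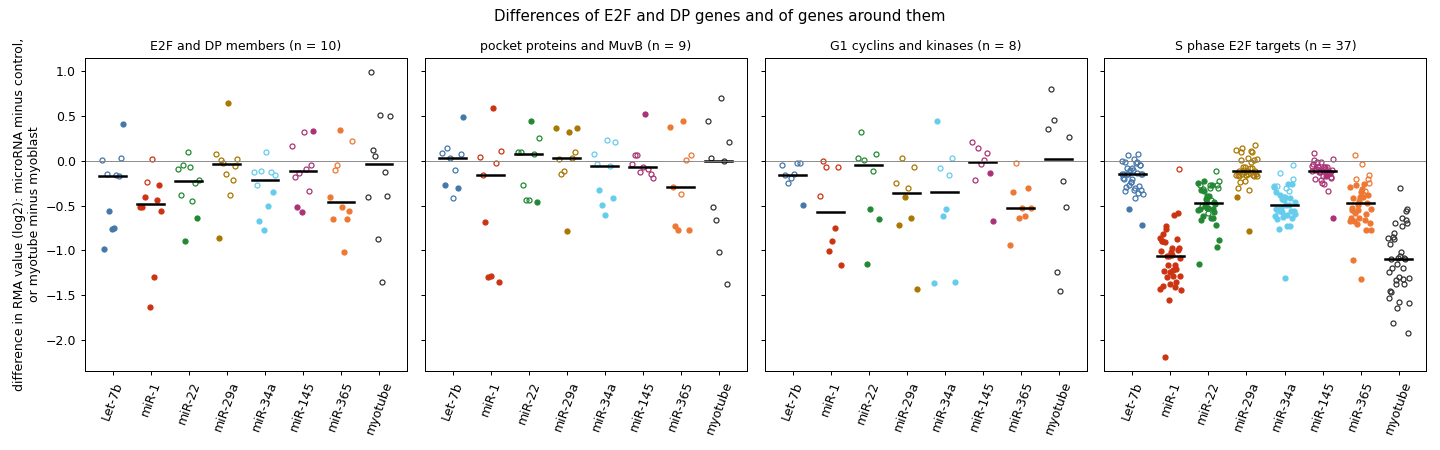
Log2 differences (vertical axis) of the 10 members, 9 pocket protein and MuvB genes, 8 G1 cyclin and kinase genes and 37 S phase targets, for each microRNA minus control and for myotube minus myoblast (horizontal axis). Each point is a gene, filled where adjusted p was below 0.05 by limma and open otherwise or, for the myotube, where no test was possible, and bars are medians; with miR-1, 36 of the 37 S phase targets are filled and lie below 0.

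The replication genes that E2F proteins drive in S phase fell with some of the microRNAs, and a link to the changes of the members was not tested. Of 37 such targets measured, 36 fell with miR-1, 29 with miR-34a, 29 with miR-365 and 26 with miR-22, and 0 rose. Their median log2 differences in the same order were −1.06, −0.49, −0.47 and −0.47, while 10.5%, 6.06%, 8.33% and 5.67% of all genes were lower. With Let-7b, miR-29a and miR-145 only 2 targets fell for each, where 5.46%, 4.78% and 3.00% of all genes were lower. Chek1, the checkpoint kinase, changed by −2.18 with miR-1, and Mcm5, a helicase subunit, by −1.31 with miR-34a and −1.32 with miR-365. Ccne1, cyclin E1, changed by −1.16 with miR-22. In the myotube array 34 of the 37 targets were at least 1.5-fold lower than in the array labelled myoblast, led by Tk1 at −1.92. The mean level of the 37 targets was 9.05 in the myotube array and 10.16 in the array labelled myoblast, while it lay between 10.59 and 10.63 in control cells.

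Muscle markers also moved in the transfected cells, and their part in the decreases of E2F genes and targets was not tested. Counts and means take the myoblast and myotube markers together. Of the 10 markers, 7 rose and 1 fell with miR-1 (median log2 difference 0.51), 6 rose and 1 fell with miR-34a (0.59), and 4 rose with miR-22 (0.46). Of all genes 13.2%, 5.62% and 8.82% rose in that order, and 10.5% and 6.06% fell with miR-1 and miR-34a. With each of miR-29a, miR-145 and miR-365 1 marker rose, where 5.54%, 3.85% and 11.7% of all genes rose. With Let-7b 3 markers fell (−0.45), where 5.46% of all genes fell. The mean level of the 10 markers was 11.10 to 11.48 with miR-1, 11.30 to 11.35 with miR-34a, 11.19 to 11.28 with miR-22 and 10.97 to 11.04 with miR-365. It was 10.07 to 10.59 with Let-7b, 10.87 to 11.13 with miR-29a and 10.75 to 11.25 with miR-145, against 10.65 to 10.87 in control cells. With miR-365, where 1 marker passed, 0 of the 10 lay below control and the median log2 difference was 0.18. With Let-7b, where 3 fell, 9 of the 10 lay below control.

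The genes of proteins that bind or regulate E2F were less uniform. Among them, Rbl1, Mybl2, Ccne1 and Ccne2 also belong to the S phase targets above and are counted there as well. Of the 9 pocket protein and MuvB genes, 4 fell and 1 rose with miR-1, where 10.5% of all genes fell and 13.2% rose. With miR-365 4 fell and 2 rose (8.33% and 11.7% of all genes), and with miR-34a 4 fell and 0 rose (6.06% and 5.62%). With miR-29a 1 fell and 3 rose (4.78% and 5.54%), and with Let-7b 2 fell and 1 rose (5.46% each). With miR-22 1 fell and 1 rose (5.67% and 8.82%), and with miR-145 0 fell and 1 rose (3.00% and 3.85%). Rbl1, which encodes p107, changed by −1.35 ± 0.12 with miR-1 (adjusted p = 4.65e-08) and by −0.77 ± 0.12 with miR-365 (adjusted p = 7.58e-05). Rb1, which encodes the retinoblastoma protein, rose with 5 microRNAs, by 0.59 ± 0.09 with miR-1 (adjusted p = 2.93e-05), 0.52 ± 0.09 with miR-145 (0.000801), 0.44 ± 0.09 with each of miR-22 (0.00138) and miR-365 (0.000913), and 0.32 ± 0.09 with miR-29a (0.0218). The 8 G1 cyclin and kinase genes had 7 lower with miR-365 and 4 lower with each of miR-1, miR-29a and miR-34a, and 1 was higher with miR-34a. Among all genes 8.33% were lower with miR-365, 10.5% with miR-1, 4.78% with miR-29a and 6.06% with miR-34a, and 5.62% were higher with miR-34a. Cdk6, a kinase that inactivates the pocket proteins, fell with all 7 microRNAs, most with miR-29a (−1.43 ± 0.08, adjusted p = 1.61e-10). Ccnd1, cyclin D1, changed by −1.36 ± 0.15 with miR-34a (adjusted p = 1.7e-06) and by −0.94 ± 0.15 with miR-365 (adjusted p = 8.94e-05).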

How the data were processed

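Per the submitters' processing notes, the authors made the deposited log2 values of 29 arrays with RMA in Affymetrix Expression Console 1.1. Filters and the genome build of the probe annotation are not given in the sources used here. Of 35556 probe sets, 21789 carried 1 symbol, 1621 several and 12146 none; each of 19938 genes was represented by its brightest single-symbol probe set. The technical repeats of the control were averaged with their array. In R 4.3.3, limma 3.58.1 (lmFit, and eBayes with an intensity trend) was fitted to the 24 values of 8 groups, and p-values were adjusted by Benjamini-Hochberg over all genes. Intervals and SEs are limma's. The script was tested on simulated data. The 3 experiments are separate per the labels. The fit used the group only, so p-values measure the spread of the 3 values within groups. That spread includes any shift shared by values with the same replicate number.

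The members and lists were chosen with earlier results of these data known. Text names all members, the up to 3 changed genes of a list with the largest differences, and the 3 genes most like each member. Cdk6 over all 7 microRNAs and Rb1 over 5 were singled out after their values were seen. The replicate number was taken as pairing for miR-22, miR-29a, miR-34a and miR-365, by a cut-off on the correlation with the control of the same number. The lowest such correlation was 0.12, 0.16, 0.21 and 0.30 in that order. For Let-7b, miR-1 and miR-145, not taken as paired, it was 0.08, −0.04 and −0.04, so the line between Let-7b and miR-22 is narrow. Yet over all groups 23 of 24 values correlated best with their own number outside their group, so other groups may also share experiments. Alternatives were the replicate block, technical pairs as a random block, no technical repeats, the mean of all probe sets, no genes among the 40% dimmest, a further quantile normalization, array weights, no intensity trend, only the groups compared, a 2-fold threshold and leaving out each replicate.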

Additional observations from a re-analysis of the deposited data

Results flagged for a closer look

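Among the 6 control arrays, the value of Tfdp2 on the array of control replicate 3 stood apart from the others: it read 9.84, with the nearest of the others at 9.67 and the lowest at 9.60. The gap made up 0.689 of the whole range of the 6 arrays, above Dixon's critical value for a group of 6 independent values. The 6 arrays are 3 transfections, each with a technical repeat, so they are not independent. The rate of about 1 group in 20 at which chance passes that value therefore does not hold here. The gap is given as a description only. With control replicate 3 left out, Tfdp2 still passed in all 3 of its calls.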

How the results depend on the processing

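Of the 31 pairs that passed, 23 kept call and direction in all 15 alternatives run for each, 8 lost the call in at least 1 (values given beside each in the report) and 0 reversed. Replicate numbers as a block added 3 calls for microRNAs whose numbers were taken as pairing, given in the report. The block also added E2f4 with miR-1 (adjusted p = 0.0065) and E2f8 with miR-145 (0.0469), where the numbers were not so taken. E2f4 with miR-1 also passed with technical pairs as a random block (0.0344), without the 40% dimmest genes (0.0418), after quantile normalization (0.034) and without miR-1 replicate 1 (0.0277), and 10 pairs that did not pass did so in at least 1 alternative. The block changed no other call against control. Members changed with miR-22 against control numbered 2, and 4 after a further quantile normalization, 5 with array weights and 4 when only the groups compared were fitted. For miR-34a against the other 6 microRNAs the 3 became 5 with the replicate block, without the 40% dimmest genes, after quantile normalization and with array weights. A 2-fold threshold left 1 member between myotube and myoblast. Leaving out arrays, the counts ran from 5 to 9 for miR-1 against control, from 1 to 4 for miR-34a and from 4 to 7 for miR-145 against the other 6. Reversals were limited to differences from control near 0 that never passed. For Let-7b, Tfdp1 read −0.0194 with the mean of all probe sets and from −0.0522 to 0.0696 over left-out arrays, and E2f1 read −0.0444 with array weights and from −0.1003 to 0.0808. Over left-out arrays E2f6 ran from −0.0491 to 0.1581 with miR-1 and E2f3 from −0.1121 to 0.0186 with miR-22. With miR-29a, E2f3 read −0.0229 with the mean of all probe sets and ran from −0.0251 to 0.0338 over left-out arrays, E2f1 from −0.0372 to 0.144, E2f4 from −0.1078 to 0.0375, Tfdp1 from −0.11 to 0.0206 and Tfdp2 from −0.0186 to 0.064. With miR-365, E2f4 read 0.0031 with array weights and ran from −0.0895 to 0.0089, and E2f3 from −0.1604 to 0.0056. The causes of these shifts were not tested. With 3 values a group, the smallest difference of a member from control that passed was −0.27, for Tfdp1 with miR-1, and both untransfected samples lack a replicate.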

Other observations

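Of 14 genes of E2F6 complexes, 6 fell and 1 rose with miR-1, where 10.5% of all genes fell and 13.2% rose. Ezh2, the Polycomb methyltransferase, changed by −0.73 ± 0.07 with miR-1 (adjusted p = 1.79e-07), and Max, another gene of these complexes, by −0.61 ± 0.10 (adjusted p = 8.32e-05). Ezh2 is also listed among the S phase targets. With miR-365, where E2f6 itself was lower, 4 of these genes rose and 1 fell, where 11.7% of all genes rose and 8.33% fell, L3mbtl2 changing by −0.63 ± 0.09 (adjusted p = 2.28e-05). Of 5 genes listed as germline genes silenced by E2F6, 1 passed in any comparison, Tuba3a with miR-1 at −0.23 ± 0.07 (adjusted p = 0.0261). Mean Tuba3a was 8.02 in control cells and 7.79 with miR-1, above the median for probe sets that name no gene, so it did not read as silent here. With Let-7b, the microRNA with the lowest mean E2f6, 0 of the 5 passed, where 5.46% of all genes passed in each direction. Of the 5, Tuba3b, Stag3 and Smc1b read below 6.67, the median for probe sets that name no gene, in both untransfected arrays. A change in genes at that level may not be seen.

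Of 5 apoptotic genes that E2F1 can activate, 3 rose with miR-1, 2 with miR-22, 2 with miR-145 and 1 with Let-7b, and 0 fell. Of all genes 13.2%, 8.82%, 3.85% and 5.46% rose in that order. Apaf1, the core of the apoptosome, rose with miR-22 (0.58 ± 0.09, adjusted p = 7.54e-05), miR-1 (0.52 ± 0.09, adjusted p = 8.91e-05), miR-145 (0.50 ± 0.09, adjusted p = 0.000814) and Let-7b (0.37 ± 0.09, adjusted p = 0.00651). Bcl2l11, which encodes BIM, rose with miR-22 (0.44 ± 0.08, adjusted p = 0.00053) and miR-145 (0.28 ± 0.08, adjusted p = 0.0338). With miR-1, Pmaip1 (0.36 ± 0.10, adjusted p = 0.00929) and Bbc3 (0.22 ± 0.07, adjusted p = 0.0158) rose as well. Of 7 CDK inhibitor genes listed, 6 were measured, and Cdkn1a was not among them, so nothing can be said about it. Of the 6 measured, 2 fell with each of miR-1, miR-29a and miR-365 (10.5%, 4.78% and 8.33% of all genes). With each of miR-22 and miR-34a 1 fell (5.67% and 6.06% of all genes), and 0 of the 6 rose with any microRNA. Cdkn2c, the CDK inhibitor p18, fell with 5 of the 7 microRNAs, most with miR-1 (−1.09 ± 0.13, adjusted p = 9.04e-07). Between the myotube array and the array labelled myoblast the log2 difference was −0.92 for Cdkn2c and 1.30 for Pmaip1, without a replicate.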
